A study of Mus musculus with 12 samples.

Results

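The 10 genes described here mark classes of spinal motor neuron: Chodl, Mmp9, Spp1, Sv2b and Rbfox3 for fast or alpha motor neurons, Sv2a for slow ones, Esrrg, Wnt7a and Htr1d for gamma ones, and Ahnak2 as a further motor neuron gene. They were chosen by name, with earlier results of these data known. All 10 were found among the 38924 genes measured in each library. RNA came from the whole spinal cord of 12 mice aged 8 weeks on a mixed B6J;FVB background. The WT group held 6 mice, written ETAQ+/+ in the labels, and the other group held 6 mice heterozygous for the ETAQ deletion in Gars, the glycyl-tRNA synthetase gene, written ETAQ+/- in the labels and ETAQ/+ below. Each group had 3 females and 3 males, and the titles number the mice from 1 to 12. The comparison asks how the cord transcriptome of ETAQ/+ mice differs from that of WT mice, here for the markers of motor neuron classes. The labels name no litter or culture, so the p-values measure the spread between these animals.

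Motor neurons of the ventral horn fall into classes that differ in the muscle fibres they reach. Alpha motor neurons drive the force-producing fibres of muscle and divide into fast types, which serve fast-twitch fibres and tend to be lost early in motor neuron disease, and slow types, which are more resistant. Gamma motor neurons are smaller and set the sensitivity of the muscle spindle. Several of the 10 genes are also read in other cells of the cord. Examples are Rbfox3 and Sv2a in most neurons, Spp1 in reactive microglia and bone, and Mmp9 in neutrophils. The cells that supplied the transcripts were not measured for any of the 10. A marker's level, changed or not, therefore cannot be read as that of its class alone. In RNA from a whole tissue, fewer cells of a type and less RNA per cell cannot be told apart.

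Libraries held 23595944 to 41452700 expected counts, so that the limit set by a count of 0 (3 counts) lay between 0.0724 and 0.127 CPM, counts scaled by the library total. The least abundant of the 10 genes, Htr1d, had at least 66 counts in each mouse. Markers of neurons and astrocytes were present in every library, with summed levels of 4809 to 5579 TPM for 9 neuronal genes and 2005 to 2723 TPM for 6 astrocyte genes, where TPM is a level scaled by transcript length and library total. Earlier results on these libraries placed mice 1 to 6 apart from mice 7 to 12. In mice 1 to 6 the 3 WT animals are males, and of the 3 ETAQ/+ animals 2 are males and 1 is a female. In mice 7 to 12 this is turned round, with 3 WT females, 2 ETAQ/+ females and 1 ETAQ/+ male, so sex and set cannot be fully told apart. A test of the set, adjusted for sex and genotype, called 1356 genes (7.89% of 17189). The labels do not call the sets a batch. Gene counts do not separate the deleted from the normal Gars allele, so the rise of Gars by 0.19 ± 0.03 on the log2 scale (SE, edgeR adjusted p = 0.00408) does not check the genotype labels.

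In WT cords the 10 genes spanned a wide range of levels. Sv2a, which encodes a glycoprotein of synaptic vesicles, was the most abundant at 213 ± 16.9 TPM (SD, n = 6). It was followed by Spp1 at 121 TPM (105 to 132 over the 6 mice) and Rbfox3 at 94.3 ± 8.36 TPM, and the WT ranges of these 3 genes did not overlap. Ahnak2 at 60.1 ± 6.66 and Sv2b at 52.5 ± 3.77 TPM overlapped over the WT mice, as did Chodl at 32.3 ± 3.23 and Esrrg at 29.6 ± 2.78 TPM. Wnt7a at 7.62 ± 0.783 TPM overlapped Mmp9 at 7.49 ± 1.46 TPM. Htr1d was lowest, at 3.25 ± 1.08 TPM, and also the most variable relative to its level, with a coefficient of variation of 33.3% against 7.18% for Sv2b. In ETAQ/+ cords Spp1 stood at 93.1 ± 8.04 TPM (n = 6) and Rbfox3 at 89.5 ± 7.98, with overlapping ranges, so that the gap between them in WT was not seen. Ahnak2 at 28.0 ± 2.90 TPM, well above Esrrg in WT, overlapped it at 31.8 ± 1.82 TPM, and Chodl at 9.31 ± 0.992 TPM overlapped Wnt7a at 8.86 ± 1.04 TPM.

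Between the genotypes, 4 of the 10 genes fell in ETAQ/+ cords, none rose and 6 did not pass the test. The genes that fell were Chodl, Spp1 and Sv2b of the fast or alpha group, and Ahnak2. Mmp9 and Rbfox3, the other 2 fast or alpha markers, the slow marker Sv2a and the gamma markers Esrrg, Wnt7a and Htr1d did not pass. The test was the quasi-likelihood test of edgeR, adjusted for sex, with p-values adjusted by Benjamini-Hochberg over all 17189 genes tested and a threshold of 0.05. Over all those genes 1.92% were called, 1.34% as lower and 0.582% as higher. The 10 genes were chosen with earlier results of these data known, so their count cannot be tested against these shares. The median log2 fold change of the 10 genes was -0.09, against 0.00 over all genes tested. At an unadjusted p under 0.05 there were 6 of the 10, and 1873 of all 17189 genes tested. DESeq2 and limma-voom called the same number, 4 of the 10. The 12 values of Chodl, Ahnak2 and Sv2b separated by genotype without overlap, each lower in ETAQ/+, as did 1.35% of all genes tested.

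**Figure D1:**
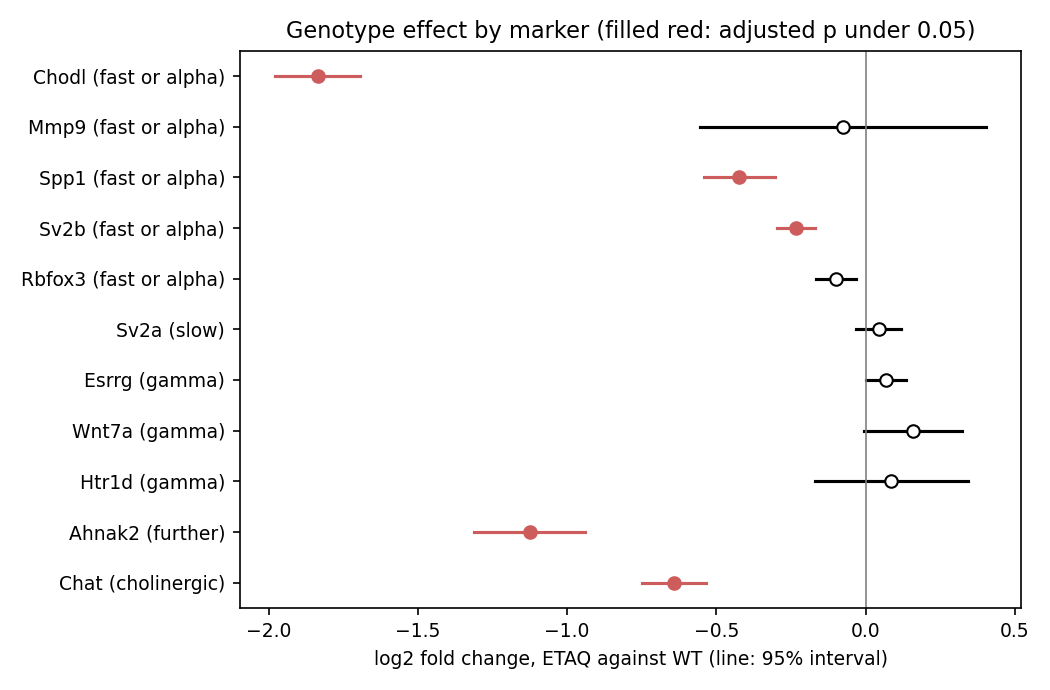
Log2 fold change of ETAQ/+ against WT (x axis) for each of the 10 genes and for Chat, with its 95% interval as a line (6 mice a group, edgeR). Filled red points passed an adjusted p of 0.05: Chodl at -1.84, Ahnak2 at -1.13, Spp1 at -0.42, Sv2b at -0.23 and Chat at -0.64, while the open points lie near 0.

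RefSeq start sites of the 4 genes that fell are shown because these genes moved in one direction. Each window holds 250 bases before and 50 after a start site on GRCm38.p6, 5′ to 3′ on the gene's strand, and for Spp1 and Sv2b it is the one nearest the gene's 5′ end. In Chodl the capitals mark a match to TATANAA, the core promoter motif that positions the start of transcription in some genes. In Spp1 they mark a match to CCAAT, a common promoter motif, read on the other strand.

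Chodl, chr16:78930698-78930997, plus strand: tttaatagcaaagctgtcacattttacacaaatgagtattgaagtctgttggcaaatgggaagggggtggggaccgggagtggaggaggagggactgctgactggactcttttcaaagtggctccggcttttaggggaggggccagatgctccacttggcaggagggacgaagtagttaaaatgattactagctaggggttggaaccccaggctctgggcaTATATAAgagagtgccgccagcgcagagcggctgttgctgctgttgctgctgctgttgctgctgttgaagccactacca

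Ahnak2, chr12:112795693-112795992, minus strand: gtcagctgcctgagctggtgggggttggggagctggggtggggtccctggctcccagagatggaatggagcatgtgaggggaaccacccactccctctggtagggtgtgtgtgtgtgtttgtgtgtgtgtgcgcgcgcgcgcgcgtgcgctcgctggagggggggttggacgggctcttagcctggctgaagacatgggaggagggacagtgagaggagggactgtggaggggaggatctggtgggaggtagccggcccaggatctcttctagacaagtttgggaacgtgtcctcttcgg

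Spp1, chr5:104434861-104435160, plus strand: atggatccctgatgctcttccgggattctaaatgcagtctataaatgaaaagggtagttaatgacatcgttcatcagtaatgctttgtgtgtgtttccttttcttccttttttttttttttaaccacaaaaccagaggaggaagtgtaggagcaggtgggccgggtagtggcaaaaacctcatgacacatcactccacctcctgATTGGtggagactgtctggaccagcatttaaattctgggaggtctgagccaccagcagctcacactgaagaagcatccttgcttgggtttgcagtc

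Sv2b, chr7:75309213-75309512, minus strand: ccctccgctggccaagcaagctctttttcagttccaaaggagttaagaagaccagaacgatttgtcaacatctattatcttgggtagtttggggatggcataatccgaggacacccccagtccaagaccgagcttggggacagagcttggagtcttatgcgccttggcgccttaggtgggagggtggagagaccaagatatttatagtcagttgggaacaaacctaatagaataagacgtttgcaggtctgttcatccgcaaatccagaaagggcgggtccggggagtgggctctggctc

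The Chodl window holds TATATAA starting 29 bases before its start site, and the Spp1 window holds its match 46 bases before. The windows of Ahnak2 and Sv2b shown hold no match to any of the 4 motifs searched on both strands. The letters TATANAA occur in 11.3% of all 32851 RefSeq windows of this length and CCAAT in 37.4%. Among the 17 windows of 9 of the 10 genes, TATANAA matched in 3 and CCAAT in 4. Outside the windows shown, TATANAA matched in a further window of Spp1 and of Sv2b. CCAAT also matched in windows of Esrrg, Htr1d and Rbfox3, which did not pass the genotype test. The other motifs were AAGGTCA, a site of estrogen-related receptors, in 4.72% of all windows and in 0 of the 17 windows of 9 of the 10 genes, and TAATTA, a homeodomain core, in 5.29% and in 1 further Spp1 window. Guanine and cytosine made up 52.7% of the Chodl window, 63.7% of that of Ahnak2, 45.3% of that of Spp1 and 51.3% of that of Sv2b, against a median of 52.7% over all windows. The Ahnak2 start site of RefSeq lies inside the longer GENCODE model of the gene. A match is a description of the letters and not evidence of a bound site.

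Chodl (ENSMUSG00000022860, chromosome 16, 78930948 to 78951733, plus strand, GRCm38) encodes chondrolectin, a membrane protein with a C-type lectin domain. Its normalised CPM, which is the count scaled by library total and TMM factor, ran from 36.0 to 52.2 over the 6 WT mice with a median of 45.8. Over the 6 ETAQ/+ mice it ran from 11.7 to 14.7 with a median of 11.97. The highest ETAQ/+ mouse stayed far under the lowest WT mouse, and 5 of the 6 ETAQ/+ mice lay between 11.7 and 12.6. Chodl thus fell by 72.0% (95% interval -74.6% to -69.1%), which is -1.84 ± 0.07 (SE) on the log2 scale (edgeR adjusted p = 7.12e-10). Within mice 1 to 6 the change was -1.95 ± 0.09 and within mice 7 to 12 it was -1.72 ± 0.09.

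Ahnak2 (ENSMUSG00000072812, chromosome 12, 112772194 to 112802657, minus strand) encodes a very large scaffold-type protein of the AHNAK family. WT mice ranged from 142 to 186 normalised CPM (median 153), with mice 2 and 3 at 186 and 182 above the other 4. ETAQ/+ mice ranged from 63.0 to 85.3 (median 74.4). Every ETAQ/+ mouse was below every WT mouse. Ahnak2 fell by 54.2% (95% interval -59.7% to -47.9%), a log2 fold change of -1.13 ± 0.08 (edgeR adjusted p = 1.60e-05). It measured -1.09 ± 0.12 within mice 1 to 6 and -1.17 ± 0.12 within mice 7 to 12.

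Spp1 (ENSMUSG00000029304, chromosome 5, 104435118 to 104441050, plus strand) encodes osteopontin, a secreted phosphoprotein used as a marker of alpha motor neurons. It stood at 71.5 to 92.4 normalised CPM in WT (median 86.7) and at 55.1 to 75.8 in ETAQ/+ (median 62.1). The groups overlapped through WT mouse 7 at 71.5 and ETAQ/+ mouse 6 at 75.8. Those 2 mice belong to different sets, and within each set the groups were apart, as for 8.03% of all genes tested in this direction in mice 1 to 6 and 8.8% in mice 7 to 12. Spp1 fell by 25.4% (95% interval -31.3% to -19.0%), a log2 fold change of -0.42 ± 0.05 (edgeR adjusted p = 0.000527). In GENCODE M21, 18.8% of its exon bases lie in Gm42793 on the same strand and 8.55% of its 75-base sequences are shared with it, so the division of reads between the 2 makes its level uncertain.

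Other sources of Spp1 transcripts were read beside it. Of 7 microglia markers none was called between the genotypes by edgeR, DESeq2 or limma-voom and 1, Cx3cr1 at 0.21 ± 0.08, had an unadjusted p under 0.05, with a summed level of 193 to 225 TPM in WT and 214 to 245 TPM in ETAQ/+, and the same held for the 4 tested of 5 markers of disease-associated microglia (6.95 to 11.9 against 9.54 to 14.3 TPM, and again 1, Lpl at 0.31 ± 0.13, at an unadjusted p under 0.05). Csf1r, one of the 7, overlaps an antisense gene in 15.1% of its exon bases. Of 8 bone and osteoclast markers none was called by these tools either, and 1, Dmp1, had an unadjusted p under 0.05. Dmp1, a bone matrix protein gene, lies close to Spp1, at 104202613 to 104214102 on chromosome 5 where Spp1 starts at 104435118. Dmp1 was at 9.72 ± 1.92 normalised CPM in WT and 6.92 ± 1.44 in ETAQ/+, a log2 fold change of -0.49 ± 0.15 (edgeR unadjusted p = 0.00775, adjusted p = 0.190). Like Spp1, Dmp1 overlapped between the genotypes over all mice and was apart within each set, at 6.97 to 12.3 in WT against 5.30 to 6.16 in ETAQ/+ in mice 7 to 12. Of all genes tested, 8.03% were apart in this direction in mice 1 to 6 and 8.8% in mice 7 to 12. Of the 8 markers, 5 were called higher in mice 1 to 6, beside 7.89% of all genes tested called by set in either direction. The sum of the 8 was 37.6 to 96.3 TPM in mice 1 to 6 against 16.9 to 22.4 TPM in mice 7 to 12. Spp1 itself fell by 0.34 ± 0.07 on the log2 scale in mice 1 to 6 (adjusted p = 0.0411) and by 0.51 ± 0.07 in mice 7 to 12 (adjusted p = 0.00279). The part of these cells in the level of Spp1 was not tested.

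Sv2b (ENSMUSG00000053025, chromosome 7, 75114894 to 75309262, minus strand) encodes another member of the synaptic vesicle glycoprotein family SV2. The WT mice lay between 152 and 173 normalised CPM (median 162) and the ETAQ/+ mice between 135 and 144 (median 138). The groups did not overlap, although the difference was the smallest of the 4 that passed. Sv2b fell by 14.9% (95% interval -18.5% to -11.1%), a log2 fold change of -0.23 ± 0.03 (edgeR adjusted p = 0.000344), and the change was -0.23 ± 0.04 in mice 1 to 6 and -0.24 ± 0.04 in mice 7 to 12.

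The SV2 family gives a comparison of close relatives within each library. Sv2a did not pass the test, with a log2 fold change of 0.04 ± 0.04 (edgeR adjusted p = 0.755), and neither did the third family member Sv2c at -0.15 ± 0.06 (adjusted p = 0.369). The ratio of Sv2b to Sv2a in TPM was 0.236 to 0.258 in the WT mice and 0.197 to 0.211 in the ETAQ/+ mice, with no overlap. It fell by 0.27 on the log2 scale, and the two-sided exact permutation p over the 924 divisions of 12 mice into 6 and 6 was 0.00216, the smallest they can give. Leaving out 1 mouse at a time moved the difference between -0.29 and -0.26. This ratio was chosen after the values had been seen. The transcript length that the authors' software assigned to Sv2b was also shorter in ETAQ/+, at 5371 ± 5.05 against 5389 ± 10.3 bases (exact permutation p = 0.00649, unadjusted, 10 genes compared after seeing the tables), and no other of the 10 genes had an exact permutation p under 0.05 for this length.

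**Figure D2:**
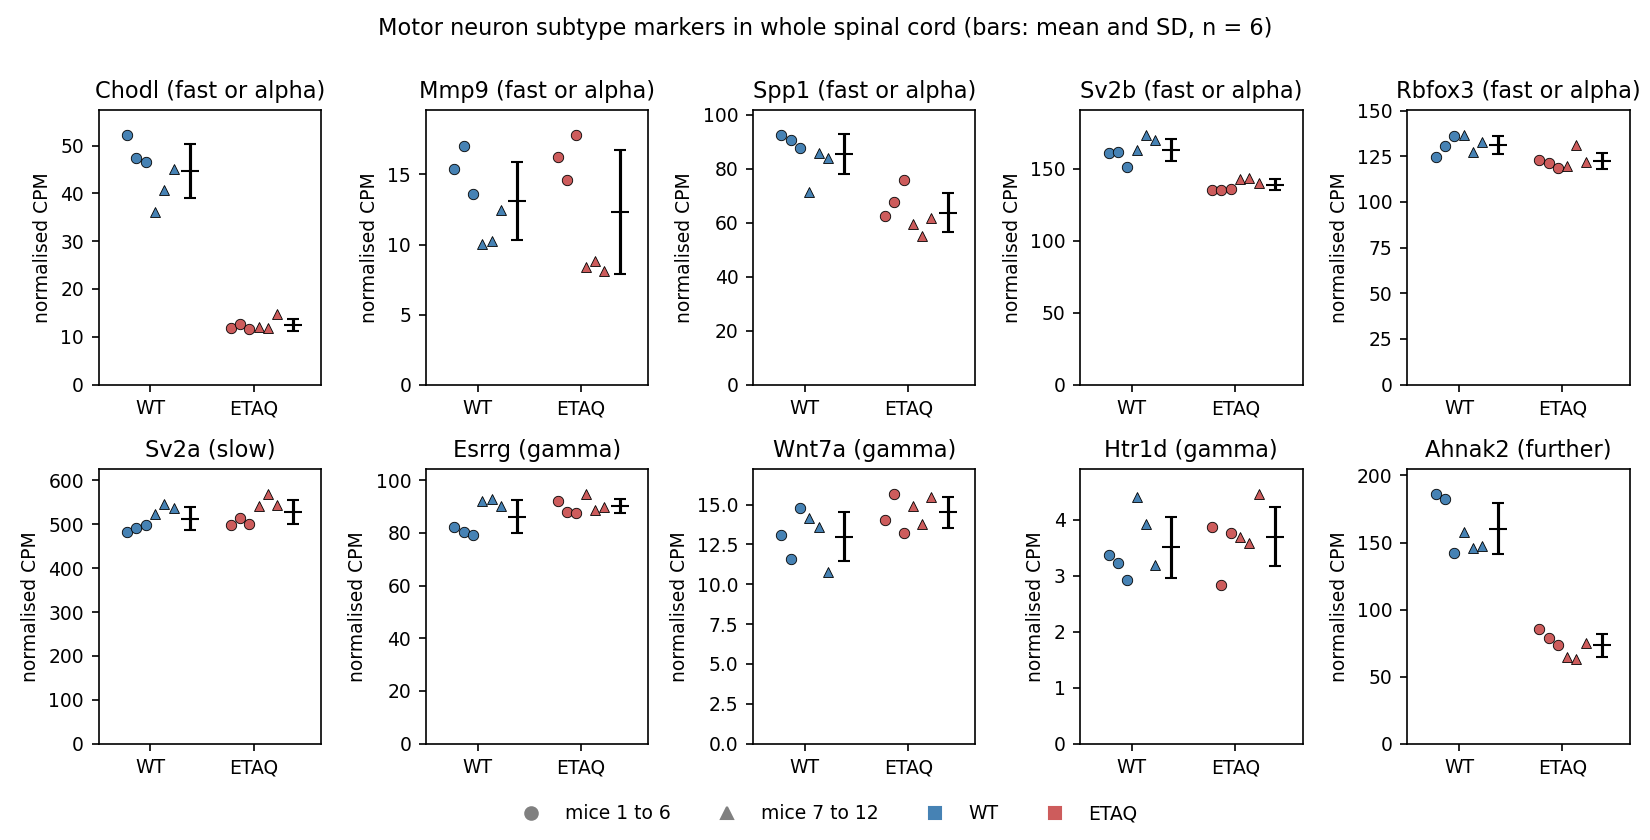
Normalised CPM (y axis, from 0) of each of the 10 genes in WT and ETAQ/+ mice, with 1 point a mouse, circles for mice 1 to 6 and triangles for mice 7 to 12, and bars for the mean and SD of 6 mice. The points of Chodl, Ahnak2 and Sv2b separate by genotype, those of Spp1 overlap slightly, and those of Mmp9 separate by set of mice.

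Rbfox3 (ENSMUSG00000025576, chromosome 11, 118489762 to 118911597, minus strand) encodes the splicing regulator NeuN, which is strong in alpha and weak in gamma motor neurons and present in most other neurons. It measured 124 to 137 normalised CPM in WT (median 132) and 119 to 131 in ETAQ/+ (median 122). The ranges overlapped. Its log2 fold change was -0.10 ± 0.03, a change of -6.60% (95% interval -10.8% to -2.16%), with an unadjusted p of 0.00697 and an edgeR adjusted p of 0.178. Its relatives Rbfox1 and Rbfox2 stood at 0.01 ± 0.04 and 0.01 ± 0.03.

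Mmp9 (ENSMUSG00000017737, chromosome 2, 164940780 to 164955850, plus strand) encodes a secreted matrix protease that marks fast motor neurons. It ran from 10.1 to 17.0 normalised CPM in WT (median 13.0) and from 8.11 to 17.8 in ETAQ/+ (median 11.7). The ranges overlapped, with ETAQ/+ mice 8, 9 and 11 below every WT mouse and ETAQ/+ mouse 6 above every WT mouse. Its log2 fold change of -0.08 ± 0.22 (edgeR adjusted p = 0.947) had a 95% interval from -0.55 to 0.40, by far the widest of the 10. With the set of mice added to the fit, it was -0.14 ± 0.09 (edgeR adjusted p = 0.580), a larger estimate with a smaller error and still not called.

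The spread of Mmp9 followed the sets of mice. Mice 1 to 6 had 13.6 to 17.8 normalised CPM and mice 7 to 12 had 8.11 to 12.5, a difference of -0.83 ± 0.12 on the log2 scale for the latter (edgeR adjusted p = 0.00102). All 8 neutrophil markers, among them Elane, S100a8 and Camp, were also higher in mice 1 to 6, with a summed level of 448 to 890.0 TPM against 0.880 to 18.7 TPM. All 5 skeletal muscle markers were higher in the same mice (50.2 to 718 against 1.84 to 4.85 TPM). The test of the set called 7.89% of all genes tested in either direction. Between the genotypes none of the 8 or of the 5 was called by edgeR, DESeq2 or limma-voom, with 0 at an unadjusted p under 0.05, and the part of either list in the level of Mmp9 was not tested. Within mice 7 to 12, where those markers were low, Mmp9 was at 10.1, 10.3 and 12.5 normalised CPM in the WT mice and at 8.36, 8.79 and 8.11 in the ETAQ/+ mice. These 3 and 3 values did not overlap, as was so for 8.8% of all genes tested in this set and direction. The change there was -0.36 ± 0.12, with an unadjusted p of 0.00739 and an edgeR adjusted p of 0.263. In mice 1 to 6 the change was 0.07 ± 0.11. The difference of the effect between the sets was -0.44 ± 0.17 (unadjusted p = 0.0216, adjusted p = 0.995).

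**Figure D3:**
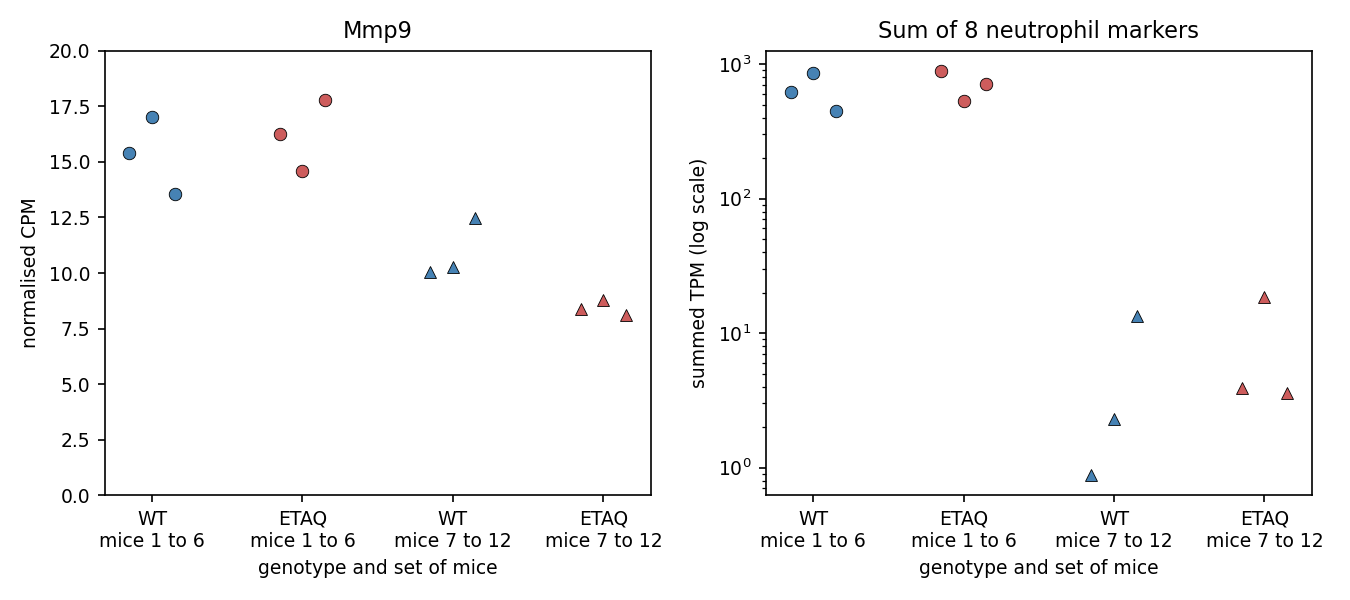
Normalised CPM of Mmp9 (left, axis from 0) and the summed TPM of 8 neutrophil markers (right, log axis), with 1 point a mouse by genotype and set. Mice 1 to 6 are higher in both panels, and in mice 7 to 12 the 3 ETAQ/+ points of Mmp9, 8.11 to 8.79, lie under the 3 WT points, 10.1 to 12.5.

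The slow marker Sv2a (ENSMUSG00000038486, chromosome 3, 96181151 to 96195521, plus strand) ranged from 483 to 546 normalised CPM in WT (median 510.4) and from 498 to 568 in ETAQ/+ (median 528). The groups overlapped, and the 95% interval of the change ran from -2.23% to 8.53%. Like Mmp9, but in the opposite direction, it moved with the sets, being higher in mice 7 to 12 by 0.13 ± 0.03 on the log2 scale (edgeR adjusted p = 0.0315). Of 3 other slow motor neuron genes, Esrrb, Prkcd and Kcnn3, none passed the genotype test in edgeR, DESeq2 or limma-voom, and 0 had an unadjusted p under 0.05. Over all genes tested edgeR called 1.92%, so no call among so few genes does not set the slow class apart. Esrrb, an orphan nuclear receptor, was at 0.18 ± 0.09 (adjusted p = 0.493), Prkcd, a protein kinase C, at 0.03 ± 0.07 and Kcnn3, a calcium-activated potassium channel, at -0.12 ± 0.13.

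None of the gamma markers passed the test in edgeR, DESeq2 or limma-voom, 1 had an unadjusted p under 0.05, and the 3 estimates lay above 0. No call among 3 genes is near the 1.92% called by edgeR over all genes tested. Esrrg (ENSMUSG00000026610, chromosome 1, 187608791 to 188214885, plus strand), an orphan nuclear receptor of the estrogen-related family, ranged from 79.2 to 93.0 normalised CPM in WT (median 86.1) and from 87.7 to 94.6 in ETAQ/+ (median 89.3). The ranges overlapped, and the 3 lowest values were those of the WT mice 2, 3 and 4. The log2 fold change was 0.07 ± 0.03, with an unadjusted p of 0.0445 and an edgeR adjusted p of 0.439.

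The Esrrg estimate was higher in mice 1 to 6 than in mice 7 to 12, but this difference did not pass the adjusted test. In mice 1 to 6 the WT mice were at 79.2 to 82.1 and the ETAQ/+ mice at 87.7 to 92.2, without overlap, as for 7.45% of all genes tested in this set and direction. The change was 0.13 ± 0.04 in mice 1 to 6 (edgeR adjusted p = 0.226) and 0.00 ± 0.04 in mice 7 to 12. The difference of the effect between the sets had an unadjusted p of 0.0464 and an edgeR adjusted p of 0.995. Among the 10, Esrrg alone had an effect that differed between the sexes at an unadjusted p under 0.05. It was 0.14 ± 0.05 more in males (edgeR unadjusted p = 0.0218, adjusted p = 0.901). The WT males are the WT animals of mice 1 to 6, and the WT females those of mice 7 to 12. The sex and set comparisons thus share their WT groups and are not separate observations. The relatives of Esrrg, Esrra and Esrrb, did not pass the genotype test.

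Wnt7a (ENSMUSG00000030093, chromosome 6, 91363981 to 91411363, minus strand) encodes a secreted signalling protein and lies on the same chromosome as Gars. WT mice ranged from 10.8 to 14.8 normalised CPM (median 13.3) and ETAQ/+ mice from 13.2 to 15.6 (median 14.5). The groups overlapped, with a log2 fold change of 0.16 ± 0.08 (95% interval -0.01 to 0.32, edgeR adjusted p = 0.487). Htr1d (ENSMUSG00000070687, chromosome 4, 136423524 to 136444398, plus strand), a serotonin receptor, measured 2.92 to 4.40 normalised CPM in WT (median 3.30) and 2.83 to 4.46 in ETAQ/+ (median 3.73). These ranges were nearly the same. Its log2 fold change was 0.09 ± 0.12 (edgeR adjusted p = 0.877), with a 95% interval of the change from -11.2% to 26.8%.

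The 4 genes that fell passed the test in each sex and in each set of mice. In females the log2 fold changes were -1.77 ± 0.09 for Chodl, -1.08 ± 0.12 for Ahnak2, -0.45 ± 0.08 for Spp1 and -0.26 ± 0.04 for Sv2b, where 0.541% of all genes tested were called lower. In males they were -1.90 ± 0.09, -1.17 ± 0.13, -0.40 ± 0.08 and -0.20 ± 0.04 in the same order, where 0.442% were called lower. The adjusted p-values in males of Spp1, 0.0456, and of Sv2b, 0.0432, lay close to the threshold. The share of genes called lower was 0.524% in mice 1 to 6 and 0.686% in mice 7 to 12. The effect did not differ between the sexes or between the sets at an adjusted p under 0.05 for any of the 10 genes in edgeR or DESeq2, and edgeR called 0% of all genes tested in both comparisons. At an unadjusted p under 0.05 there was 1 of the 10 for sex, Esrrg, and 2 for set, Mmp9 and Esrrg. The share of all genes under that unadjusted threshold was not counted for these comparisons, so the counts do not set the markers apart.

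To read each marker against cholinergic neurons as a whole, its TPM was divided by that of Chat, the gene of the enzyme that makes acetylcholine, in the same mouse. Chat itself fell from 24.6 ± 1.12 to 15.8 ± 0.978 normalised CPM (n = 6 each), a log2 fold change of -0.64 ± 0.05 (edgeR adjusted p = 2.62e-06). Relative to Chat, Chodl was lower in ETAQ/+ by 1.19 on the log2 scale and Ahnak2 by 0.50. In both, every ETAQ/+ mouse was below every WT mouse, with an exact permutation p of 0.00216, the smallest that 6 against 6 can give. These 2 genes therefore fell by more than Chat did.

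The other 8 estimates were above 0. Spp1 rose relative to Chat by 0.23 (exact permutation p = 0.0108), Sv2b by 0.42, Rbfox3 by 0.53, Sv2a by 0.69, Esrrg by 0.71 and Wnt7a by 0.82, the last 5 with an exact permutation p of 0.00216. Htr1d rose by 0.57 (exact permutation p = 0.0238), and the ratio of Mmp9 differed by 0.52 (exact permutation p = 0.0649). Thus 9 of 10 ratios had an exact p under 0.05. The share of all genes that pass such a ratio test was not computed, for Chat or for another reference gene. Counts of ratios that pass therefore do not set the markers apart from other genes. These tests are two-sided and unadjusted, and the 10 ratios share the Chat values. For a gene that changed little, the difference is close to the change of Chat with its sign reversed.

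The choice of reference mattered for the markers that changed moderately. Slc5a7, the choline transporter gene, did not pass the genotype test (-0.28 ± 0.08, edgeR adjusted p = 0.138). With it in place of Chat, 5 of the 10 ratios had an exact p under 0.05. Spp1 then stood at -0.14 (exact permutation p = 0.106), Sv2b at 0.05 (p = 0.621 by the same exact test), Rbfox3 at 0.16 (exact p = 0.195) and Htr1d at 0.20 (exact p = 0.394). With the peripherin gene Prph as reference, 10 of 10 ratios had an exact p under 0.05, with Spp1 at 0.42 and Sv2b at 0.61 (both exact permutation p = 0.00216). Chodl and Ahnak2 remained lower with each reference tried, Chat, Slc5a7 and Prph. That Spp1 and Sv2b fell by less than the reference gene thus holds for Chat and Prph and not for Slc5a7.

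**Figure D4:**
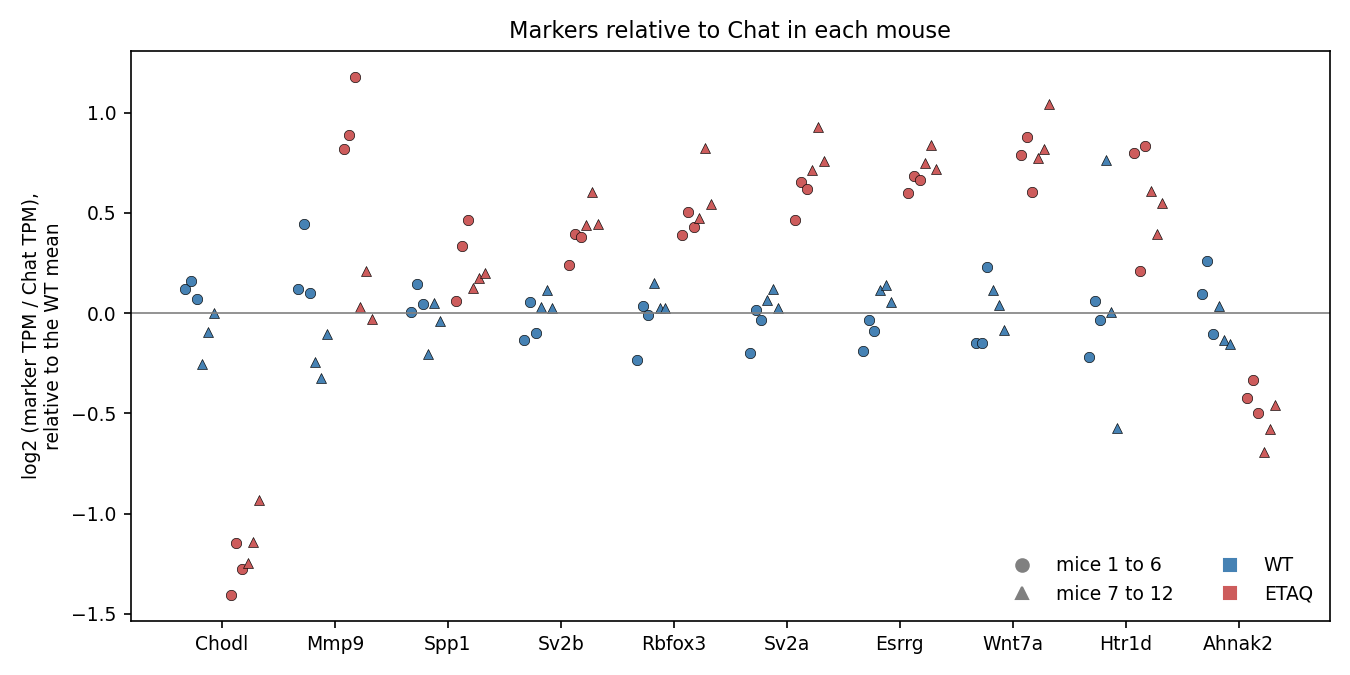
Log2 ratio of each marker's TPM to Chat TPM in the same mouse (y axis), set to 0 at the WT mean, with 1 point a mouse. ETAQ/+ points of Chodl and Ahnak2 lie below all WT points, those of Sv2b, Rbfox3, Sv2a, Esrrg and Wnt7a above, and those of Spp1, Mmp9 and Htr1d overlap the WT points.

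Other genes of the same motor neuron classes were taken from lists written with earlier results of these data known. Of 7 other fast or alpha genes, 4 fell, none rose and 3 did not pass, with a median log2 fold change of -0.62 against 0.00 over all genes tested, of which 1.34% were called lower. Calca, the gene of calcitonin and the neuropeptide CGRP, was at 21.5 ± 4.26 normalised CPM in WT and 5.14 ± 1.01 in ETAQ/+ (log2 fold change -2.06 ± 0.16). Its relative Calcb fell by 1.11 ± 0.16, the kinase gene Stk32a by 0.62 ± 0.08 and Vipr2, a receptor for the peptide VIP, by 0.93 ± 0.20 on the log2 scale, the last with an edgeR adjusted p of 0.0262. Dlk1, Glis3 and Kcnq5 did not pass, and Dlk1, which marks fast motor neurons, had an estimate of 0.15 ± 0.05 (adjusted p = 0.185). The estimates of the 7 thus ran from -2.06 to 0.15. CGRP is also made by sensory neurons, and of 7 sensory ganglion markers 3 passed the low-count filter. Of these, P2rx3, an ATP-gated channel, and Avil, advillin, rose by 2.87 ± 0.13 and 2.35 ± 0.32 on the log2 scale. Over all genes tested, 0.582% were called higher. Avil was low in WT, at 0.154 to 0.645 normalised CPM. Tmem233 did not pass, and Scn10a, Scn11a, Trpv1 and Mrgprd were too low to test.

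Of 6 other gamma genes, beside 1.34% called lower over all genes tested, 1 fell, Gfra1, a receptor subunit for the neurotrophic factor GDNF. It was at 93.3 ± 5.46 normalised CPM in WT and 79.2 ± 2.44 in ETAQ/+ (log2 fold change -0.23 ± 0.04, edgeR adjusted p = 0.00173), and 6.17% of its 75-base sequences are shared with the antisense gene Gm16277. Stxbp6 at -0.08 ± 0.03, Creb5 at 0.20 ± 0.11, Plch1 at -0.09 ± 0.06, Npas1 and Pard3b did not pass, and the median of the 6 was -0.02. None of 4 genes of visceral motor neurons passed in edgeR, DESeq2 or limma-voom or had an unadjusted p under 0.05. Fbn2 was at 0.09 ± 0.07, Zeb2 at 0.07 ± 0.06, Gnb4 at 0.02 ± 0.05 and Nos1 at 0.01 ± 0.06. No call among 4 genes is near the 1.92% called by edgeR over all genes tested.

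Genes shared by motor neurons also fell in part. Of 16 listed, 15 were tested, with no row found here for Slc18a3, and 8 fell, none rose and 7 did not pass (median -0.49), where 1.34% of all genes tested were called lower and 0.582% higher. DESeq2 called 10 of the 15. Slc10a4, which encodes a synaptic vesicle protein, fell by 0.86 ± 0.06, the intermediate filament gene Prph by 0.84 ± 0.05, and the axonal neurofilament genes Nefl and Nefh by 0.49 ± 0.03 and 0.54 ± 0.03 on the log2 scale. Nefl shares 31.3% of its 75-base sequences with its antisense neighbour Nefm, which also fell. The other genes that fell were Chat, Kcnj14 and Tns1. Of the 7 that did not pass, Isl1 was at -0.02 ± 0.19, Ache at -0.05 ± 0.03, Ret at -0.10 ± 0.03 and Mnx1 at -0.14 ± 0.12. Slc5a7 was at -0.28 ± 0.08, Bcl6 at -0.31 ± 0.10 and Isl2 at -0.85 ± 0.24. Among 9 general neuronal genes, Stmn2, which encodes stathmin 2 of growing and repairing axons, fell by 0.30 ± 0.03 (1.34% of all genes called lower), and the other 8 did not pass, with a median of -0.07 for the 9. Snap25, Tubb3 and Eno2 stood at -0.11 ± 0.03, -0.10 ± 0.03 and -0.09 ± 0.04. All 9 estimates lay below 0, as did 8266 of all 17189 genes tested. An unadjusted p under 0.05 in edgeR was found for 5 of the 9 and for 1873 of all genes tested. Of the 6 astrocyte markers, 1 rose, the glutamate transporter gene Slc1a3 by 0.19 ± 0.04 (edgeR adjusted p = 0.0141), where 0.582% of all genes were called higher.

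**Figure D5:**
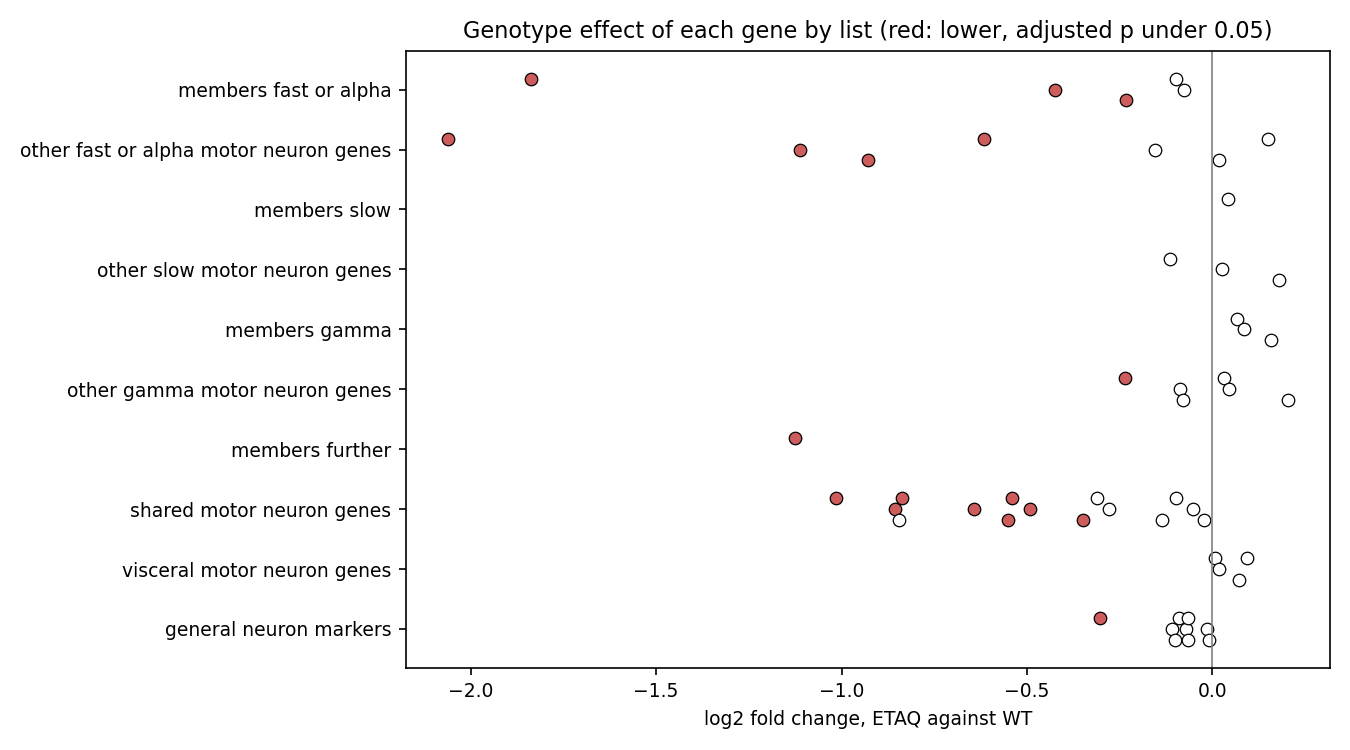
Log2 fold change of ETAQ/+ against WT (x axis), with 1 point a gene for the 10 genes by class and for the other lists. Red points fell at an adjusted p under 0.05: the fast or alpha rows reach from -2.06 to above 0, while the slow and visceral rows hold no red point and the gamma rows 1, Gfra1. Over all genes tested 1.34% were called lower, so a short row without a red point does not set its class apart.

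The genes whose values over the 12 mice were most like those of Chodl and Ahnak2 were found by the root-mean-square difference of log2 CPM taken relative to the WT mean, over all genes tested. For Chodl the nearest were Gm3248 at 0.246, Calca at 0.280 and Gm3636 at 0.317. Their log2 fold changes were -3.99 ± 0.39, -2.06 ± 0.16 and -2.31 ± 0.25 in the same order, against -1.84 for Chodl. For the distance only, 0.5 CPM was added, so a near gene can differ in fold change. Gm3248 holds 28.5% and Gm3636 78.3% of sequences of 75 bases that other genes also carry, so their counts are uncertain, and Calca is the nearest without this limit. For Ahnak2 the nearest were Cd24a at 0.153, a surface glycoprotein gene, the potassium channel gene Kcnj14 at 0.191 and Tmem254b at 0.213. Kcnj14 shares 24.6% of its 75-base sequences with Gm5522 and Tmem254b shares 100% with Tmem254a and Tmem254c. Cd24a had a log2 fold change of -0.99 ± 0.11, Kcnj14 of -1.01 ± 0.07 and Tmem254b of -1.29 ± 0.08, against -1.13 for Ahnak2. A similar change follows from how these genes were picked and is not a separate result.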

How the data were processed

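Whole spinal cord RNA of 12 mice was sequenced as 75 bp read pairs after polyA selection, per the labels' protocols, which name a KAPA stranded and a KAPA HyperPrep kit without saying which library had which. Per the submitters' processing notes, reads went through Bowtie2 2.2.0 and RSEM 1.2.12, with genome build, annotation and strand setting not given in the sources used here. Per gene, the deposited tables hold expected counts, not normalised, and TPM, which the authors' software scaled by length and total, per the file headers. FPKM was not used. RSEM's assigned transcript lengths in the deposited tables, in bases, were compared once.

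Expected counts were rounded (15.4% of all values but 0% of those of the 10 genes were not whole) and tested in R 4.3.3 with edgeR 4.0.16: filterByExpr over the 4 genotype-by-sex groups (17189 genes kept, all 10 markers among them), TMM scaling (factors 0.975 to 1.02), the robust quasi-likelihood test adjusted for sex, and Benjamini-Hochberg adjustment. SE was taken as the size of the log2 fold change over the root of the F statistic. Effects within a sex or set came from fits of all 12 mice. Ratios to Chat were compared by exact permutation of TPM ratios (scipy 1.17.1), with no adjustment over the 10 markers. Alternatives were DESeq2 1.42.0, limma-voom (limma 3.58.1), RLE factors, no filter, no sex term, a set term, and leaving out each mouse. Fits were tested on simulated data. Positions came from GENCODE M21 (GRCm38) and promoter windows from RefSeq (GRCm38.p6), which had none for Mmp9. Genes with at least 5% of their 75-base sequences in another gene, or of their exon bases inside one, were treated as uncertain.

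The members and lists were chosen with earlier results of these data known. Beside the 10 markers and Gars, the rule named up to 4 genes with the smallest p in each list, and the 3 genes most like each called marker with an absolute log2 fold change of at least 0.5 (after adding 0.5 CPM). Other listed genes named here were named after their values were seen.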

Additional observations from a re-analysis of the deposited data

Results flagged for a closer look

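In 20 groups of 6 mice (10 genes by 2 genotypes), 2 mice stood apart from the other 5 of their group by more than Dixon's critical value, which chance alone passes in about 1 group of 20. ETAQ/+ mouse 11, a male, had the highest Chodl of its group, at 14.7 normalised CPM against 11.7 to 12.6 in the others, and was still far under the WT range of 36.0 to 52.2. ETAQ/+ mouse 9, a female, had the highest Rbfox3 of its group, at 131 normalised CPM, which lies inside the WT range of 124 to 137. Without 1 mouse at a time, Chodl stayed between -1.88 and -1.80 on the log2 scale, and Rbfox3 between -0.12 and -0.08.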

How the results depend on the processing

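The count of 4 markers called was the same under every alternative run. Over all genes 506 were called by DESeq2 and 112 in mice 7 to 12 alone, a setting chosen after seeing the data, against 330, and 236 to 315 without 1 mouse at a time, with 4 markers called each time and 0 whose effect differed between sexes or sets. Of the log2 fold changes of the 10 markers over 19 alternatives, 187 kept direction and side of the threshold and 3 changed sign, none of them called: Esrrg at -0.00223 and Htr1d at -0.0768 in mice 7 to 12 alone, where fewer mice entered, and Mmp9 at 0.0560 without ETAQ/+ mouse 11. For Mmp9, leaving out 1 mouse gave -0.25 to 0.06, and adding the set gave -0.14. Markers with an exact p under 0.05 relative to Chat numbered 9 to 10 without 1 mouse at a time, Mmp9 passing without mouse 3, 8 or 11, and 5 with Slc5a7 as reference, chosen after seeing the data, where Spp1 stood at -0.14; with Prph 10 passed and Mmp9 stood at 0.71 (exact permutation p = 0.0195). The cause was not tested. DESeq2 called 3 of the 9 general neuronal genes and 2 of the 6 astrocyte genes, where edgeR called 1 of each, and 10 of the 15 shared motor neuron genes, where edgeR called 8. Ratios to Slc18a3 were planned and not run, since the name matched no gene of the tables. No paired analysis was possible because each mouse number belongs to 1 mouse. The depth limits Htr1d most, with 66 to 131 counts a library.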
